A study of Chlorocebus aethiops with 12 samples.

Results

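The response of GR+MDFIC cells to dexamethasone (Dex) was measured on 6 of the 12 arrays in the series, 3 titled as Dex for 6 h and 3 as vehicle for 6 h, and these arrays were taken by their titles. The cells were COS-1, a fibroblast-like kidney line of the African green monkey that carries the SV40 large T antigen and is widely used to express transfected receptors. All 6 cultures had been transfected (FuGENE6) with both the glucocorticoid receptor (GR) and MDFIC (MyoD family inhibitor domain containing), and kept in medium with charcoal-stripped serum. Treatment with vehicle or 100 nM Dex began 48 h after transfection, and each group held 3 biological replicates. The other 6 arrays came from cells transfected with GR alone, under the same vehicle and Dex treatments, again 3 of each. The species of the constructs and the share of cells that took them up are not given in the sources used here, so a level is an average over whole cultures. Every group carried transfected GR, and cells with MDFIC but no GR, or with neither, were not analysed here.

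GR is a nuclear receptor that rests in the cytoplasm in a chaperone complex. On binding a glucocorticoid such as Dex it enters the nucleus, where it raises some genes by binding glucocorticoid response elements and lowers others, in part through other transcription factors. MDFIC shares a cysteine-rich domain with the MyoD family inhibitor and has been reported to bind GR, and the comparison addressed what Dex did to transcript levels when both proteins were supplied.

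Probes were designed for human transcripts and were hybridised with monkey RNA. The files pair probes with accessions and not with gene names, and no table that pairs them was used here. Transcripts are therefore given by accession, their functions are not stated, and the transfected genes and the markers of the cell line could not be looked up. No more than 2 transcripts that rose and 2 that fell are named for the same reason. Levels are log2 processed signals minus the 75th percentile of the array's non-control spots, so that 0 marks a spot at that percentile and a difference of 1 is a doubling. On the 6 arrays between 70.5% and 75.2% of 43376 non-control spots were well above background, and 22821 accessions passed the filter of being well above background on all 3 arrays of either group.

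The slides were not balanced. Vehicle replicates 1 and 2 lay on slide 2, and vehicle replicate 3 lay on slide 3 with all 3 Dex replicates. Slide 3 had been read on another scanner model, and its arrays had a mean 75th percentile signal of 386, against 868 on slide 2. The median absolute difference between vehicle replicates 1 and 2 was 0.11 on the log2 scale over all tested transcripts. Vehicle replicate 3 differed from them by 0.13 and 0.14 in the same measure. The 3 Dex arrays differed from one another by 0.08 to 0.10, from vehicle replicate 3 by 0.12 to 0.14, and from the vehicle arrays of slide 2 by 0.18 to 0.20. Each transcript was therefore tested in 2 fits in limma, one over the group means of all 12 arrays and one with slide as a block, in which the Dex difference is that of the 3 Dex arrays from vehicle replicate 3. A transcript is said below to have risen or fallen only where both fits gave a Benjamini-Hochberg adjusted p under 0.05 in the same direction.

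After 6 h of Dex, 542 transcripts rose and 217 fell in GR+MDFIC cells, which is 2.38% and 0.951% of those tested. Rises made up 71.4% of these 759 changes, which are 3.33% of those tested. The 542 rises had a median difference of 0.68 on the log2 scale (interquartile range 0.50 to 1.02), with a median SE of 0.07. The 217 falls had a median of -0.58 (interquartile range -0.82 to -0.44) and a median SE of 0.06. Over all tested transcripts the median difference was -0.0018. At least 1 on the log2 scale was reached by 142 of the rises and 37 of the falls. Over all tested transcripts 1361, or 5.96%, differed by at least 1 in either direction, so most differences of that size did not pass both fits. All 759 had Dex arrays that did not overlap with the vehicle arrays. Over all tested transcripts 16.5% lay higher with Dex without overlap and 16.4% lower. Among transcripts called only in the fit without the slide block, 99.9% of the higher and 96.1% of the lower ones did not overlap either. The lack of overlap is thus no further support for the 759.

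NM_016084 rose most among the transcripts that were well above background on all 6 arrays. Its level was -0.44, -0.41 and -0.54 in vehicle replicates 1, 2 and 3 and 3.50, 3.57 and 3.51 in Dex replicates 1, 2 and 3. The 3 Dex arrays lay close together and far above every vehicle array, whichever slide the vehicle array lay on. The mean went from -0.46 ± 0.07 to 3.53 ± 0.04 (SD, n = 3), a 15.9-fold rise. The log2 difference was 3.99 ± 0.06 (SE, limma, Benjamini-Hochberg adjusted p = 5.69e-10). Within slide 3 it was 4.06 ± 0.08 (SE, limma, Benjamini-Hochberg adjusted p = 1.10e-06). A second probe of this accession, A_24_P348006, which was dimmer on average than A_23_P118392, gave 3.73 and, within slide 3, 3.76.

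NM_002686 was dim in vehicle and brighter on every Dex array. It read -4.89, -4.59 and -4.71 in vehicle replicates 1, 2 and 3 and -1.91, -1.84 and -1.90 in the Dex replicates. Vehicle replicate 3, the only one of these vehicle arrays on slide 3, lay between the others, and the Dex arrays were all higher. The mean went from -4.73 ± 0.15 to -1.88 ± 0.04 (SD, n = 3), or 7.16-fold. The log2 difference was 2.84 ± 0.10 (SE, limma, Benjamini-Hochberg adjusted p = 2.27e-07), and 2.82 ± 0.12 within slide 3 (SE, limma, Benjamini-Hochberg adjusted p = 5.63e-05). With normexp background correction, which adds an offset of 50 to each signal, and quantile scaling together it was 1.36 and still passed.

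NM_182572 fell most among the transcripts measured on all 6 arrays. Its level was -2.35, -2.24 and -2.27 in vehicle replicates 1, 2 and 3 and -4.30, -4.52 and -4.59 in the Dex replicates. Each Dex array lay below each vehicle array, the one on the same slide included. The processed signals behind the Dex values were low, at 18.5, 16.4 and 17.1, against 79.9 on the vehicle array of slide 3. The mean went from -2.29 ± 0.06 to -4.47 ± 0.15 (SD, n = 3), which is 4.55-fold lower. The log2 difference was -2.19 ± 0.09 (SE, limma, Benjamini-Hochberg adjusted p = 5.91e-07), and -2.20 ± 0.13 within slide 3 (SE, limma, Benjamini-Hochberg adjusted p = 1.37e-04). With normexp and quantile scaling it was -1.13.

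NM_032647 fell by nearly the same amount with a larger spread among the Dex arrays. It read -3.36, -3.32 and -3.47 in vehicle replicates 1, 2 and 3 and -5.83, -5.05 and -5.82 in the Dex replicates. Dex replicate 2 was the highest of the Dex arrays, and no Dex array reached the vehicle levels. The processed signals behind the Dex values were 6.43, 11.4 and 7.30, close to the lower end of what the arrays measured, against 34.9 on the vehicle array of slide 3. The mean went from -3.38 ± 0.07 to -5.57 ± 0.45 (SD, n = 3), which is 4.54-fold lower. The log2 difference was -2.18 ± 0.18 (SE, limma, Benjamini-Hochberg adjusted p = 4.56e-05), and -2.10 ± 0.28 within slide 3 (SE, limma, Benjamini-Hochberg adjusted p = 0.00602). With normexp and quantile scaling it was -0.75. In a fit on the 6 GR+MDFIC arrays alone, the slide block no longer passed for NM_032647 (limma, Benjamini-Hochberg adjusted p = 0.0898, against 0.00602 with all arrays).

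**Figure D1:**
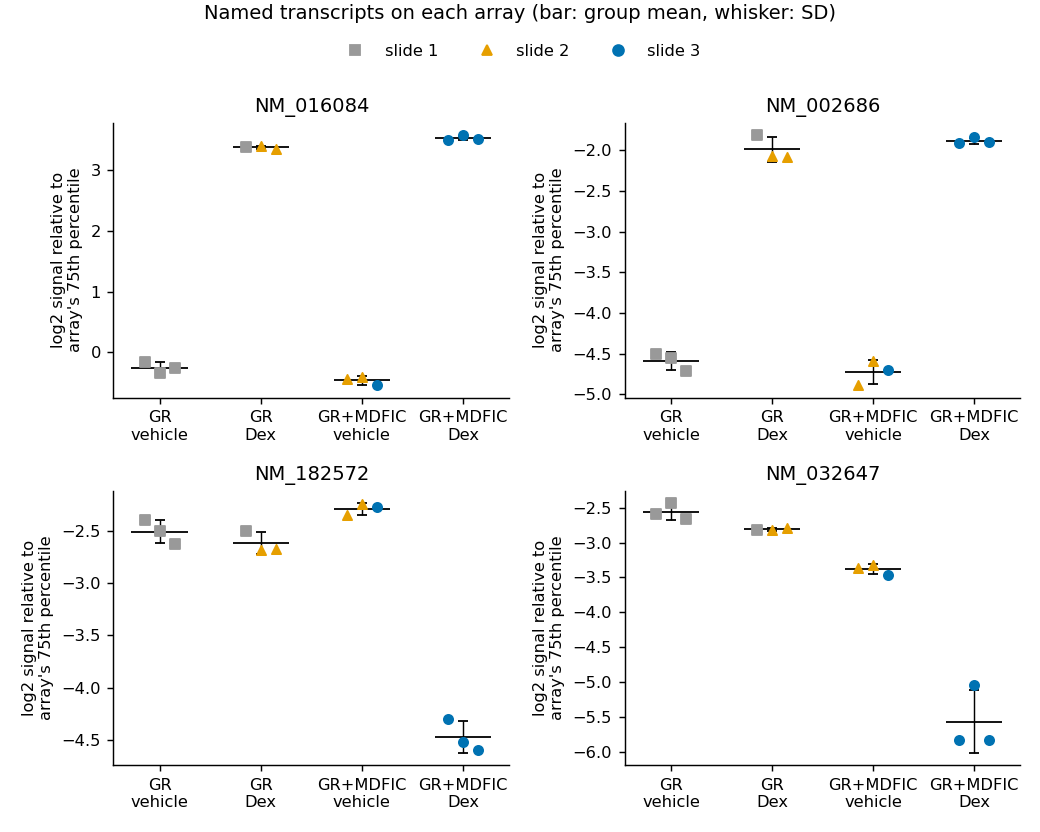
Each panel plots one named transcript, with the log2 signal relative to the array's 75th percentile on the vertical axis and the 4 groups on the horizontal axis; points are single arrays marked by slide, the bar is the group mean and the whisker the SD (n = 3). The Dex arrays of GR+MDFIC cells lie apart from their vehicle arrays in every panel. NM_182572 lies low in GR+MDFIC Dex alone, while NM_032647 is lower in GR+MDFIC vehicle than in either group of GR cells and lowest in GR+MDFIC Dex.

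Among calls that passed both fits, rises outnumbered falls among the larger changes too. In the fit without the slide block they did not, with 212 higher and 225 lower transcripts that differed by at least 1 on the log2 scale. Among transcripts well above background on all 6 arrays, 511 rose and 204 fell, of which 115 and 27 changed by at least 1 on the log2 scale. The third largest rise among them was 2.82 and the tenth 2.08. The third largest fall was -2.04 and the tenth -1.28.

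Some transcripts crossed the detection limit. Each of these passed the filter only through the group where it was high, so its direction was fixed by how it was chosen and the counts are a description. Of 147 tested transcripts that were well above background on 0 of 3 vehicle arrays but on all 3 Dex arrays, 10 rose, beside 2.38% of all tested. Since the vehicle level has only a bound there, each rise is given against the probe's own signal or the dimmest signal that counted as well above background on that array, whichever was higher. On that scale the 10 rose at least 1.38-fold to at least 9.73-fold, with a median bound of 2.87-fold. The reverse pattern, measured on all 3 vehicle arrays and on no Dex array, was found for 39 transcripts. Of these 6 fell, beside 0.951% of all tested, by bounds of at least 1.88-fold to at least 3.86-fold.

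The changes were spread over the range of signal. Tested transcripts were put into 4 bins of equal size by their mean level on the 6 arrays. In the dimmest bin, from -6.90 to -3.84, 1.56% rose and 0.526% fell. In the third bin, from -1.44 to 1.17, 3.47% rose and 1.44% fell, and in the brightest bin 1.75% rose and 0.894% fell. The median rise shrank from 1.14 in the dimmest bin to 0.54 in the brightest, while the median SE over all transcripts of the bin went from 0.26 to 0.06. Vehicle arrays differed from one another most among dim transcripts. In the dimmest bin the median absolute difference was 0.29 between vehicle replicates 1 and 2 on one slide, and 0.48 and 0.42 between vehicle replicate 3 and each of them. In the brightest bin it was 0.07, and 0.08 and 0.09.

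By kind of accession, most changes were in RefSeq protein-coding transcripts (accessions starting with NM), which were also most of those tested, 15730 of 22821. Of these 15730, 447 rose, or 2.84%, and 178 fell, or 1.13%, beside 2.38% and 0.951% of all tested. Among 822 RefSeq non-coding transcripts (NR), 19 rose, or 2.31%, and 1 fell, or 0.122%. Among 1080 Ensembl transcripts 23 rose, or 2.13%, and 8 fell, or 0.741%. Of 2526 probes known only by a probe name 20 rose, or 0.792%, and 16 fell, or 0.633%. These shares were not tested against one another, and the kinds differ in signal, with a median level of -0.65 for NM and -3.44 for NR transcripts.

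**Figure D2:**
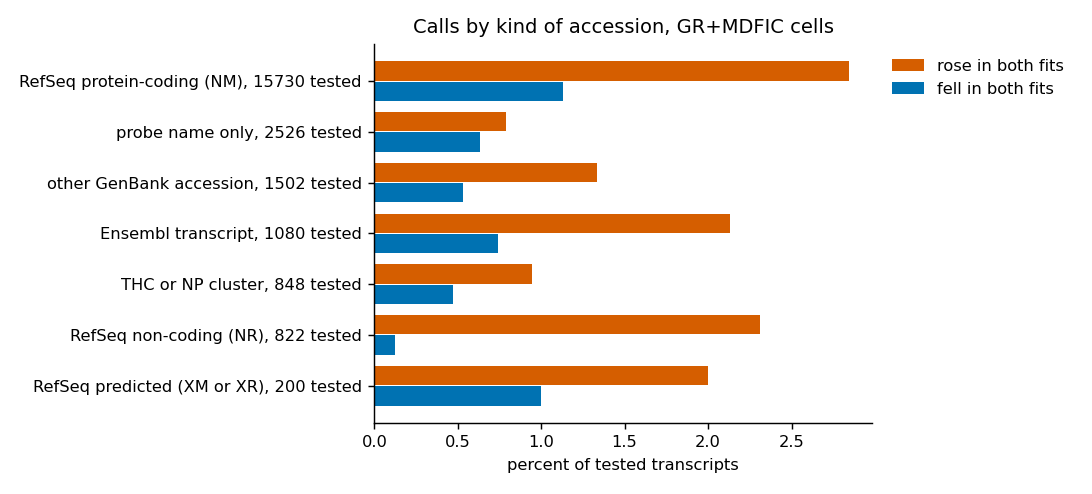
Bars give the percent of tested transcripts that rose or fell with Dex in GR+MDFIC cells in both fits, for each kind of accession with at least 200 tested. Protein-coding transcripts had the highest shares, 2.84% and 1.13%, beside 2.38% and 0.951% of all tested.

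The number of changes called differed with and without the slide block. Without it, 1602 transcripts were higher and 1614 lower with Dex (7.02% and 7.07% of those tested), so that 49.8% were higher. With it, 566 were higher and 256 lower (2.48% and 1.12%, together 3.6%), of which 542 and 217 are the rises and falls above. The fit without the block thus shared 33.8% of its higher and 13.4% of its lower transcripts with both fits, and the block fit 95.8% and 84.8%. Of the 2457 calls made without the block alone, all had the same sign against vehicle replicate 3, which is 1 of the 3 vehicle arrays they were called on and so no separate check. Their sizes were smaller, with a median of 0.35 for the 1060 higher and -0.32 for the 1397 lower transcripts, and 0.29 and -0.28 within slide 3. Among those 1397 lower transcripts vehicle replicate 3 lay below the mean of vehicle replicates 1 and 2 for 75.2%, against 50.2% among the 217 falls and 48.8% of all tested transcripts. It was 27.8% among the 1060 higher transcripts and 61.3% among the 542 rises. As the block fit compares Dex with vehicle replicate 3, failing it favours transcripts where that array lay nearer to Dex. These shares were thus partly fixed by how the transcripts were picked. The median SE over all tested transcripts was 0.08 without the block and 0.11 with it. The parts of the slide and of the larger SE in the calls made without the block alone were not tested. Without vehicle replicate 3 the remaining vehicle arrays lay on slide 2 and the Dex arrays on slide 3. Dex and slide could not be told apart there, and no slide block could be fitted. The fit without a block then called 3432 higher and 2565 lower transcripts. Without vehicle replicate 1 or 2 it called 1072 or 1124 higher and 784 or 899 lower, and without Dex replicate 2 or 3 it called 1053 or 1110 higher and 1103 or 1005 lower. In a fit on the 6 GR+MDFIC arrays alone, which estimates the spread from fewer arrays, 204 rose and 51 fell in both fits.

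**Figure D3:**
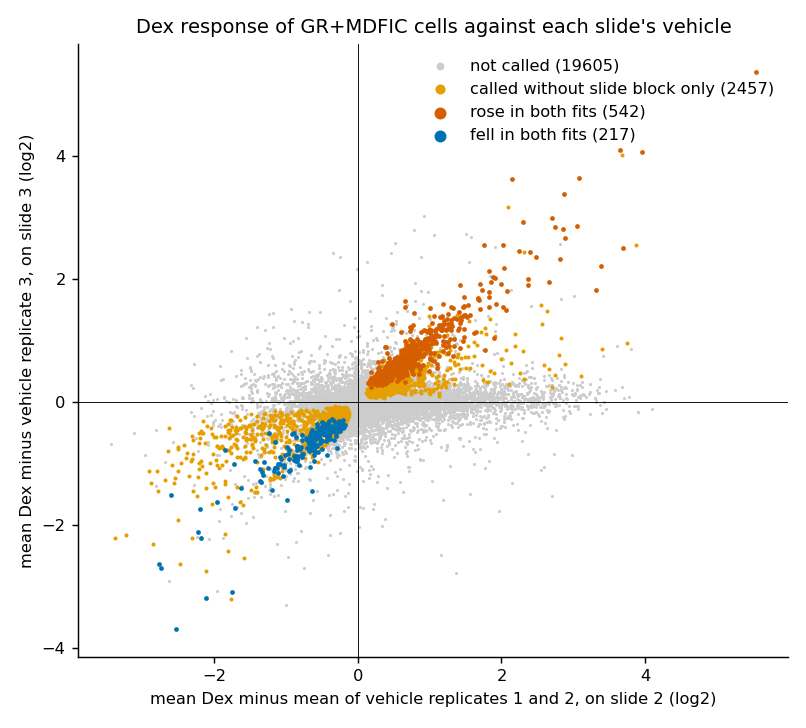
Each point is one of the 22821 tested transcripts, placed by the mean of the Dex arrays minus the mean of vehicle replicates 1 and 2 on slide 2 (horizontal, log2) and minus vehicle replicate 3 on slide 3 (vertical, log2). The 542 rises and 217 falls lie near the diagonal, and many transcripts that were not called spread along the horizontal axis, where only the slide 2 vehicle differs from Dex.

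Second probes gave another reading of the same transcripts, from the same RNA. Of the 542 rises, 146 had a second probe past the filter, and 133 of these second probes, or 91.1%, were higher with Dex. Of the 217 falls, 49 had one and 47 were lower, or 95.9%. Of those second probes, 49 (33.6%) themselves rose and 19 (38.8%) fell in both fits, while among all 4931 second probes 1.91% rose, 1.20% fell and 50.5% were higher with Dex. Another 3 second probes of the 542 rises were called in the opposite direction. The median difference was 0.59 by the first and 0.56 by the second probe for the rises, and -0.54 and -0.49 for the falls. For transcripts called without the slide block alone, 77.6% of 272 higher and 77.9% of 340 lower ones had a second probe of the same sign.

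The response of cells with GR alone was measured on other arrays and is given beside that of GR+MDFIC cells. With slide as a block the Dex difference in GR cells rests on GR Dex replicate 1 alone, the only Dex array on slide 1 with the 3 GR vehicle arrays, and so do the shared counts and the blocked interaction below. In GR cells, 517 transcripts rose and 212 fell in both fits (2.27% and 0.929% of those tested). Both kinds of cells shared 411 rises, which is 75.8% of those in GR+MDFIC cells and 79.5% of those in GR cells. They shared 118 falls, or 54.4% and 55.7%. Of the 542 rises, 541 had the same sign in GR cells, where 51.5% of all tested transcripts were higher with Dex. The medians of the rises were 0.68 in GR+MDFIC and 0.57 in GR cells. Of the 217 falls 203 had the same sign, with medians of -0.58 and -0.43. The transcripts were picked on the GR+MDFIC values, so the smaller medians in GR cells show no difference by themselves.

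The larger changes, picked by their size in GR+MDFIC cells, are given with their values in GR cells. Of the 142 rises of at least 1, 140 were called higher in GR cells without the block (4.62% of all tested), with medians of 1.32 and 1.13. Of the 37 falls of at least 1, 18 were called lower in GR cells (2.99% of all tested), and the medians were -1.27 and -0.28. Of those 37, 27 were well above background on all 12 arrays, and 10 of these changed by less than 0.5 in GR cells. The difference between these shares was not tested, and the arrays compared lay on different slides.

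The test of the Dex effect in GR+MDFIC against GR cells, the interaction, called 8 transcripts without the block (0.0351% of those tested). Each had a more negative Dex difference where MDFIC was present, and 0 had a more positive one. Lower and higher refer here to this signed difference, not to a weaker or stronger response. At an unadjusted p under 0.05 limma gave 1102 lower and 1090 higher, together 9.61% of those tested. With the slide block 14 were called, all lower (0.0613%), and at an unadjusted p under 0.05 limma gave 589 lower and 236 higher. Whether 589 against 236 departs from an even split was not tested. Of the 8, 6 were among the 217 falls, 3 of them well above background on all 6 GR+MDFIC arrays. The count was 83 without GR+MDFIC Dex replicate 2, 18 without Dex replicate 3, and 1 without Dex replicate 1 or vehicle replicate 1. It was 4 without vehicle replicate 2, so the count moved with each of these arrays. It was 1571 without vehicle replicate 3, where the remaining GR+MDFIC vehicle arrays lay on slide 2 and the Dex arrays on slide 3. Dex and slide cannot be told apart in those 1571 calls.

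Both fits called 1 transcript for this difference, NM_182572, or 0.00438% of those tested. In GR cells it read -2.39, -2.50 and -2.62 in vehicle replicates 1, 2 and 3 and -2.50, -2.69 and -2.67 with Dex, where the groups overlap. The Dex difference of NM_182572 was -0.11 ± 0.09 in GR cells (SE, limma, Benjamini-Hochberg adjusted p = 0.569), against -2.19 in GR+MDFIC cells. The difference between the effects was -2.07 ± 0.13 (SE) at a limma adjusted p (Benjamini-Hochberg) of 5.67e-04. Under the slide block it was -2.21 ± 0.18 (SE) at a limma adjusted p of 0.00835.

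NM_032647 read -2.59, -2.43 and -2.66 in GR vehicle and -2.83, -2.82 and -2.79 in GR Dex, so its GR cells lay above all GR+MDFIC arrays in either treatment. Its Dex difference in GR cells was -0.25 ± 0.18 (SE, limma, Benjamini-Hochberg adjusted p = 0.516). The difference of the effects of NM_032647 was -1.93 ± 0.25 (SE), which missed the threshold in limma at a Benjamini-Hochberg adjusted p of 0.0505, and of 0.371 with slide as a block.

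Neither named rise passed the test of a difference between the cells. NM_016084 rose by 3.62 ± 0.06 in GR cells (SE, limma, Benjamini-Hochberg adjusted p = 1.42e-09), from -0.25 ± 0.09 to 3.37 ± 0.03 (SD, n = 3). The effect in GR+MDFIC minus that in GR cells was 0.36 (95% interval 0.18 to 0.55, not adjusted for the number of transcripts, limma, Benjamini-Hochberg adjusted p = 0.329). NM_002686 rose by 2.60 ± 0.10 in GR cells (SE, limma, Benjamini-Hochberg adjusted p = 5.68e-07), from -4.59 ± 0.11 to -1.99 ± 0.15 (SD, n = 3). The effects of NM_002686 differed by 0.24 (95% interval -0.07 to 0.56, limma, Benjamini-Hochberg adjusted p = 0.583). A p above the threshold does not show that the effects were equal.

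**Figure D4:**
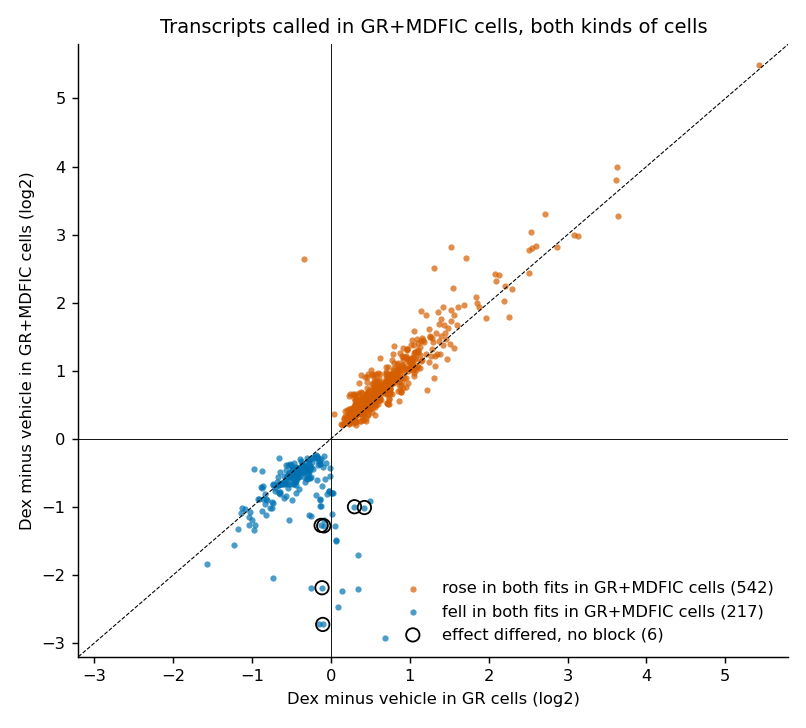
Each point is a transcript that rose (542) or fell (217) in GR+MDFIC cells, placed by its Dex minus vehicle difference in GR cells (horizontal, log2) and in GR+MDFIC cells (vertical, log2), both without slide block; the dashed line marks equal effects. Of the 542 rises, 436 (80.4%) had the larger difference in GR+MDFIC cells, on whose values they were picked. The circled points are the 6 falls that the interaction test called without the block, of which 1 (NM_182572) was also called with it.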

How the data were processed

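The deposited values were one-colour intensities on a linear scale, 1 file of 45015 spots per array. Agilent Feature Extraction (version 12 per the submitters' processing notes; per the file headers 12.0.3.1 on slide 3 and otherwise 12.0.0.7) subtracted background and spatial trends. The deposited flags, other values of 0 or 1, mark spots well above background or outlying. The deposited series table held the same signals.

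From these, log2 signals minus each array's 75th percentile were computed. Outlier spots were left out (29 missing values in the tested table), repeated spots were averaged, and each group needed 2 or more unflagged arrays per probe. The brightest of an accession's probes past the filter, 29024 in all, stood for it. Fits used limma 3.58.1 in R 4.3.3, over all 12 arrays (8 residual degrees of freedom, 6 with the slide block), two-sided, and the code was tested on simulated data. The precision is limited by the number of arrays.

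Named transcripts are the 2 largest rises and 2 largest falls that passed both fits, with groups that do not overlap and measured on all 6 arrays, as the rule says where accessions have no symbols. The gene lists and marker lists set out beforehand could not be used for the same reason. Members, lists and rules were chosen with earlier results of these data known.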

Additional observations from a re-analysis of the deposited data

Results flagged for a closer look

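The Dex effect on NM_182572 differed between GR+MDFIC and GR cells by -2.07 on the log2 scale in the interaction test without the block (limma, Benjamini-Hochberg adjusted p = 5.67e-04), with lower Dex levels on 3 of 3 GR+MDFIC arrays.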

How the results depend on the processing

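The 4 named transcripts kept their direction and passed under all 20 alternatives to the fit without a block, from 3.70 to 4.06 for NM_016084, 1.36 to 2.91 for NM_002686, -2.27 to -1.13 for NM_182572 and -2.44 to -0.75 for NM_032647. The low ends came from normexp with quantile scaling. The 542 rises and 217 falls in both fits were 270 and 80 at an adjusted p under 0.01 and 204 and 51 on the 6 GR+MDFIC arrays alone. The falls were 144 with no filter on dim probes and 353 with an intensity trend and robust variance. Leaving out 1 array gave 390 to 500 rises and 173 to 265 falls, and without Dex replicate 2 rises were 60.0% of both, against 71.4%.

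Without the block, 1602 higher and 1614 lower transcripts became 566 and 256 with a fixed slide block, 852 and 538 on the 6 arrays alone, 851 and 549 at an adjusted p under 0.01, and 601 and 274 without the vehicle arrays of slide 2, an alternative chosen after seeing the data. Leaving out 1 array gave 1053 to 3432 higher and 784 to 2565 lower. The highest of these counts came without vehicle replicate 3, where Dex and slide cannot be told apart. Slide as a random block gave 1343 and 1225.

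The 8 interaction calls without the block became 14 with slide as a fixed and 2 with it as a random block, 13 with no filter, 13 with the mean of an accession's probes, 5 with trend and robust variance and 1 at an adjusted p under 0.01. Leaving out 1 array gave 1 to 1571, the highest without vehicle replicate 3, where Dex and slide cannot be told apart. In both fits, 1 call became 4 with quantile scaling, 3 with median scaling, 4 with normexp and quantile scaling, 5 with no filter and 3 with trend and robust variance, and 1 to 27 on leaving out 1 array.

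The deviations of same-numbered vehicle and Dex arrays from their group means had correlations of -0.01, -0.07 and -0.04. With 3 arrays per group and the vehicle replicates split over slides, these cannot settle whether same-numbered cultures were paired. With the replicate block 1544 were higher and 1773 lower, with 2 interaction calls. No slide block could be fitted without vehicle replicate 3 or without the vehicle arrays of slide 2. List medians were not run, as accessions have no symbols here. The cause of these changes was not tested.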
